A study of Mus musculus with 9 samples.

Results

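Matricellular proteins are secreted into the extracellular matrix, where they bind collagens, growth factors and cell-surface receptors and tune how cells respond to the matrix rather than bearing load themselves. In bone, Sparc (osteonectin) is among the most abundant noncollagenous proteins, periostin marks the periosteum and sutures, and tenascins and thrombospondins are made by mesenchymal cells around forming bone. RNA-seq was analyzed here for 10 genes of this class among the 40548 genes in the table of day 0 and day 7, chosen by symbol: Sparc and its relative Sparcl1, the thrombospondins Thbs1, Thbs2, Thbs3 and Thbs4, the tenascins Tnc (tenascin C) and Tnn (tenascin N, also called tenascin W), periostin (Postn) and F-spondin (Spon1). Each symbol matched 1 gene.

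The cells were primary calvarial osteoblasts of C57BL/6 mice (C57BL/6J in the methods), taken according to the sample records on postnatal day 2 to 3 and harvested before differentiation (day 0) or after 4 or 7 days in mineralization medium, with 3 libraries per stage and 9 in all. The methods mention wild type and ColI-GFP mice, and do not say which were used for RNA-seq. No stage carried a genetic or drug perturbation, so time in mineralization medium, which contained ascorbic acid and β-glycerol phosphate, was the only labelled factor. Mineralized cells were released with collagenase I before trypsin and non-mineralized cells with trypsin alone, so the method of release can change with the stage and cannot be told apart from it.

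Library depth, as reads on genes, was 7741204 to 14013219 at day 0, 32820610 to 37306090 at day 4 and 10675858 to 15622755 at day 7. Of 10 osteoblast markers, 9 passed as higher at day 7 in the test given below, as did 12.6% of all genes tested, and Runx2 did not pass. Bglap and Dmp1 had at most 5 and 6 reads in a day 0 library. Both entered that test only through day 7, so their calls carry no weight. The summed level of the 10 markers per library ran from 2908 to 3360 RPKM before differentiation and from 10843 to 14205 RPKM at day 7. All 7 endothelial markers stayed under 1 RPKM in every library, and their summed level was at most 0.479 RPKM. The tendon markers Tnmd and Scx were clearly present, at up to 129 and 73.2 RPKM. Egr1, also an immediate early gene, reached 19.5 RPKM, Mkx 5.81 RPKM and Kera only 0.0625 RPKM. Macrophage markers summed to between 42.2 and 103 RPKM, and most of this was Lyz2, with 37.1 to 89.1 RPKM. Each of the other macrophage markers reached at most 7.69 RPKM. The gene model Gm42418 took between 0.110% and 11.96% of the reads of a library, most in day 0 replicate 3, and Plekhh2 took 7.95% in day 7 replicate 3. In bulk samples, fewer cells of a type and less RNA per cell cannot be told apart.

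The 10 genes spanned the whole range of expression. Levels are given in RPKM, which divides the reads on a gene by its length and by the library's total. At day 0 the mean ran from 2264 RPKM for Sparc to 0.0300 for Thbs4. Among 21613 protein-coding genes, Sparc ranked 4 at day 0, 4 at day 4 and 3 at day 7 by mean RPKM. Thbs1 ranked 9 at day 0, 24 at day 4 and 44 at day 7. Together the 10 genes took 2.42% ± 0.138, 2.38% ± 0.202 and 2.16% ± 0.237 of the reads at days 0, 4 and 7 (mean ± SD, n = 3 each). The difference between the first and the last did not pass (two-sided exact permutation p = 0.2, and no p under 0.1 is possible with 3 libraries against 3).

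**Figure D1:**
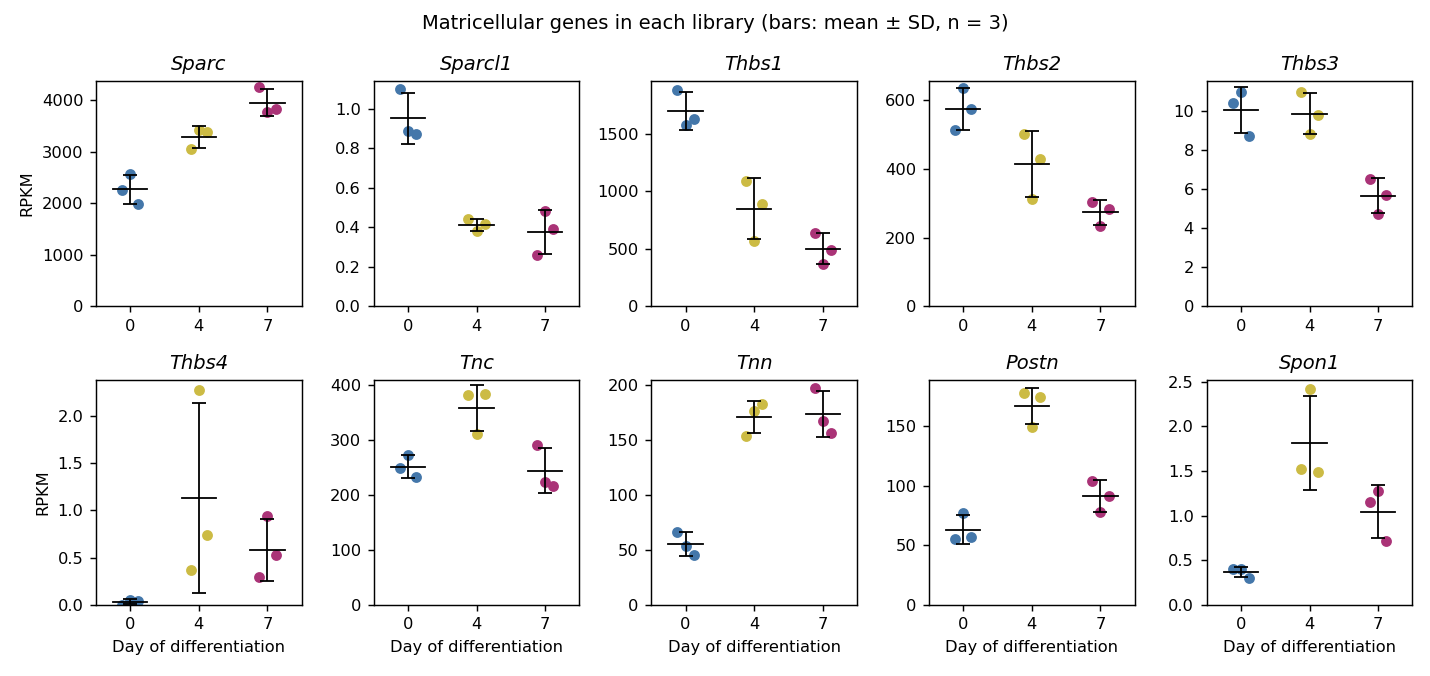
Level of each matricellular gene in RPKM (y axis, from 0, with its own scale in each panel) against the day of differentiation (x axis). Points are the 3 libraries of a stage and black bars the mean with 1 SD; Sparc lay higher at each later stage, Thbs1 and Thbs2 had lower means at each later stage, and Tnc and Postn were highest at day 4.

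For the test of day 7 against day 0, limma was run on log2(CPM + 0.5), where CPM is the reads on a gene scaled to the library's total, and it borrows information on variance across genes. All 10 genes were among the 12712 whose mean CPM reached 1. With p-values adjusted over all of them by the Benjamini-Hochberg method, 5 matricellular genes were higher at day 7 (Sparc, Postn, Tnn, Thbs4 and Spon1), 4 were lower (Thbs1, Thbs2, Thbs3 and Sparcl1) and Tnc did not pass. Among all genes tested, 31.2% passed, 12.6% as higher and 18.6% as lower. The median log2 fold change of the 10 genes was 0.24, and that of all genes was −0.11. With libraries rescaled by their median ratio over genes (median-of-ratios scaling), the median of all genes was −0.00856. The shares and median of all genes thus depend on how libraries are scaled. The libraries of the 2 stages did not overlap for the same 9 genes, 5 above and 4 below, where 16.9% and 25.4% of all genes lay so. Thbs4 passed the limit on CPM only through its day 7 libraries and so had to differ, and its call carries no weight. Without it, 4 genes were higher, and the median was that of Tnc, −0.06.

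**Figure D2:**
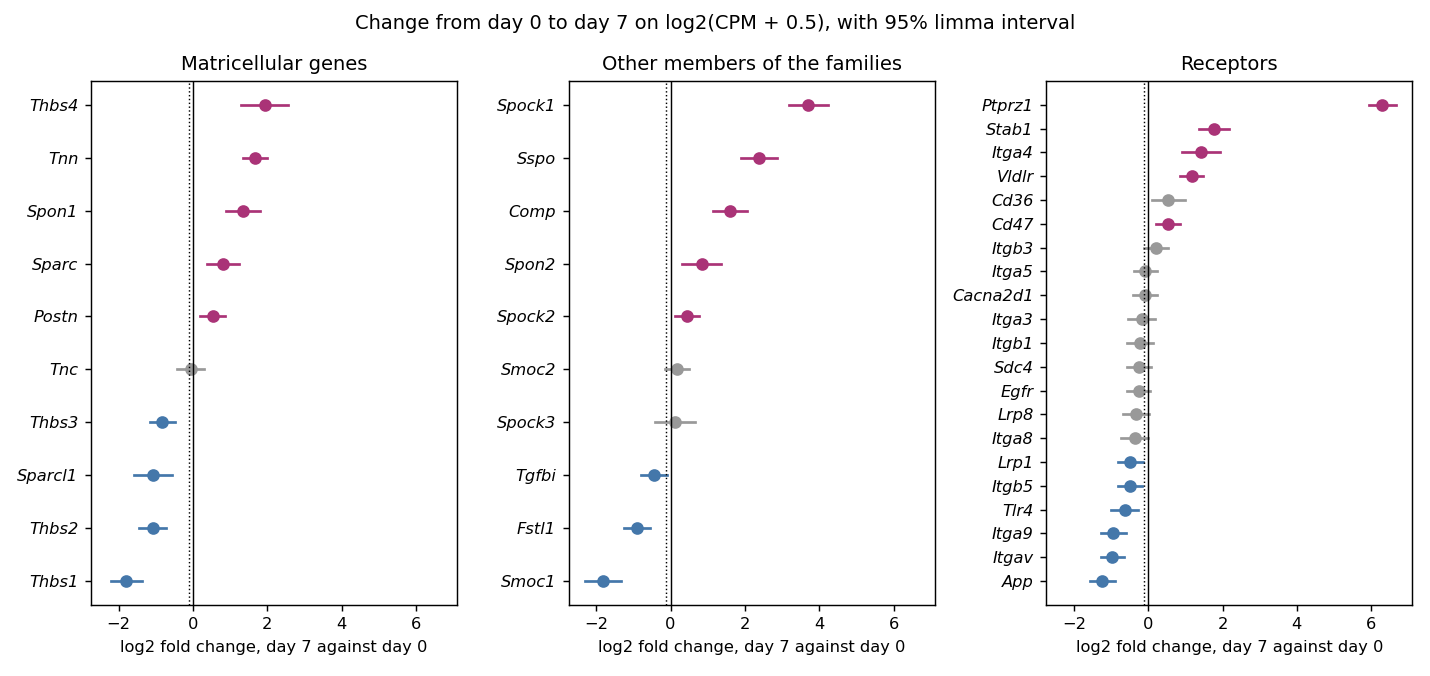
Log2 fold change from day 0 to day 7 on log2(CPM + 0.5) (x axis) for the 10 matricellular genes, the 10 tested members of their families and 21 receptors, 1 gene per row (y axis). Points are limma estimates, lines their 95% intervals, magenta and blue genes past the threshold as higher and lower, gray genes not past it, and the dotted line the median of all genes, −0.11; the matricellular genes range from Thbs1 at −1.79 to Thbs4 at 1.93.

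Sparc binds collagen and mineral and serves as a collagen chaperone. Its level was 2249.5, 2555 and 1989 RPKM in the day 0 libraries, 3039.7, 3424 and 3387 at day 4, and 4254, 3762 and 3831 at day 7. The 3 stages did not overlap, each later stage lying above the one before. Sparc was 1.74-fold higher at day 7 than at day 0, or 0.81 on the log2 scale (SE 0.215, adjusted p = 0.00281 by limma). It took 0.762% ± 0.0953 of all reads before differentiation and 1.33% ± 0.0898 at day 7 (mean ± SD, n = 3 each). The same fold change had an adjusted p of 0.281 when every gene with any reads entered the limma fit, the only one of 17 alternatives in which Sparc did not pass. Of the 10 genes, Sparc alone had all of its day 7 values above all of its day 4 values, as had 13.7% of all genes.

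Sparcl1 (hevin), a close relative of Sparc with a long acidic extension, was barely expressed. The reads on it numbered 48, 33 and 21 at day 0, 45, 44 and 47 in the more deeply sequenced day 4 libraries, and 11, 16 and 19 at day 7. In RPKM the means at days 0, 4 and 7 were 0.952 ± 0.128, 0.412 ± 0.0312 and 0.377 ± 0.112 (SD, n = 3 each), and both later stages lay wholly below the first. The fall to day 7 passed the threshold, at −1.07 on the log2 scale (SE 0.257, adjusted p = 0.000987 by limma), so Sparc and Sparcl1 moved in opposite directions.

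Thrombospondins bind calcium and cells. Thbs1 and Thbs2, which form trimers, inhibit vessel growth through CD36 and CD47, and Thbs1 can activate latent TGF-β. Thbs1 was 1885, 1577 and 1633 RPKM in the day 0 libraries, 1091, 566 and 891 at day 4, and 637, 371 and 492 at day 7. All day 4 and day 7 libraries lay below all day 0 libraries, whereas day 4 and day 7 overlapped because day 4 replicate 2 was under day 7 replicate 1. Thbs1 was 3.4-fold lower at day 7 than at day 0, the largest fall of the 10 genes in the limma fit (log2 fold change −1.79, SE 0.208, adjusted p = 9.45e-10 by limma).

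Thbs2 was 515, 636 and 574 RPKM at day 0, 503, 313 and 428 at day 4, and 302, 233 and 284 at day 7. Each stage lay wholly below the one before. With median-of-ratios scaling of the 9 libraries, day 4 replicate 1 came to lie above day 0 replicate 1, and Thbs2 at day 4 then overlapped day 0. At day 7 it was 2.11-fold lower than at day 0 (log2 fold change −1.08, SE 0.181, adjusted p = 4.66e-06 by limma).

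Thbs3 and Thbs4 belong to the pentameric thrombospondins, which are prominent in cartilage, tendon and muscle. Thbs3 was 10.5, 10.99 and 8.73 RPKM at day 0, 10.98, 8.86 and 9.84 at day 4, and 6.56, 4.76 and 5.73 at day 7. The day 0 and day 4 libraries overlapped, and every day 7 library lay below both. The day 7 level was 1.77-fold lower than at day 0 (log2 fold change −0.82, SE 0.167, adjusted p = 0.000116 by limma). In GENCODE M21, 6.59% of the exon bases of Thbs3 overlap Mtx1 on the opposite strand, and the use of strand in counting is not given in the sources used here, so a part of this level is uncertain.

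Thbs4 had 0, 2 and 1 reads in the day 0 libraries, 40, 279 and 88 at day 4, and 13, 33 and 27 at day 7. Per read sequenced, the summed reads were 43.1-fold those of day 0 at day 4 (exact 95% interval 14.6 to 210) and 20.5-fold at day 7 (6.75 to 102), Clopper-Pearson intervals that cover counting error only. The day 4 libraries spread from 0.370 to 2.27 RPKM, with replicate 2 far the highest, and no library of either later stage came down to the day 0 values. Since Thbs4 entered the test through day 7 alone, no p is given for it, and its fitted fold change depended on the model and the pseudocount, from 0.99 to 4.56 on the log2 scale.

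Summed over the 4 thrombospondins, the level was 2283 ± 110, 1275 ± 360 and 779 ± 169 RPKM at days 0, 4 and 7 (mean ± SD, n = 3 each). Of that sum Thbs1 made up 74.3% ± 3.69, 66.2% ± 2.29 and 63.7% ± 3.32 at the 3 stages, and Thbs2 made up 25.3% ± 3.66, 32.9% ± 2.00 and 35.5% ± 3.22 (mean ± SD, n = 3 each). The ratio of Thbs1 to Thbs2, which does not depend on how libraries are scaled, was 3.66, 2.48 and 2.84 at day 0 and 2.11, 1.59 and 1.74 at day 7, with no overlap (two-sided exact permutation p = 0.1, the limit of this design). By this ratio, Thbs1 was lower relative to Thbs2 at day 7 in every pairing of a day 0 with a day 7 library. That both genes were lower at day 7 rests on their own scaled levels, given above.

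Tenascins are large modular proteins that weaken the adhesion of cells to fibronectin. Tnc is found around condensing and healing bone, and Tnn is restricted mainly to periosteum, ribs and other sites of bone formation. Tnn was 66.6, 53.7 and 45.1 RPKM at day 0, 154, 177 and 183 at day 4, and 198, 168 and 157 at day 7. Every day 4 and day 7 library lay above every day 0 library, and day 4 and day 7 overlapped. Tnn was 3.10-fold higher at day 4 and 3.16-fold higher at day 7 than at day 0, and the test of day 7 gave a log2 fold change of 1.67 (SE 0.165, adjusted p = 1.05e-11 by limma).

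Tnc was 249.8, 273 and 232 RPKM at day 0, 381, 311 and 384 at day 4, and 291, 224 and 216 at day 7. All day 4 libraries lay above all libraries of the other stages, which overlapped each other. Between day 0 and day 7 its log2 fold change was −0.06 with a 95% interval from −0.415 to 0.302 (limma adjusted p = 0.845), and the estimate lay above 0 in edgeR, in DESeq2, in voomWithQualityWeights and under median-of-ratios scaling. The ratio of Tnc to Tnn was 4.66 ± 0.790, 2.11 ± 0.355 and 1.396 ± 0.0705 at days 0, 4 and 7 (mean ± SD, n = 3 each). Its values in the day 0 libraries, 3.75, 5.09 and 5.15, did not overlap those at day 7, which were 1.47, 1.33 and 1.38 (two-sided exact permutation p = 0.1). An antisense transcript, 8030451A03Rik, overlaps 2.26% of the exon bases of Tnc.

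Periostin, a fasciclin-domain protein that links collagen, tenascin C and the enzyme Bmp1, was 54.9, 76.9 and 57.4 RPKM at day 0, 178, 149.6 and 174 at day 4, and 104, 77.7 and 91.6 at day 7. Day 4 stood above both other stages in all libraries, and the day 7 libraries lay above those of day 0, by as little as 77.7 against 76.9 RPKM. Postn was 2.65-fold higher at day 4 than at day 0, and 1.83-fold lower at day 7 than at day 4. The rise from day 0 to day 7 was modest, with a log2 fold change of 0.54 (SE 0.166, adjusted p = 0.0102 by limma). It did not pass without day 0 replicate 1 (adjusted p = 0.0714), day 7 replicate 1 (adjusted p = 0.108) or day 7 replicate 3 (adjusted p = 0.0531, limma in each case), and over all alternatives the adjusted p ranged from 5.98e-07 to 0.108.

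F-spondin (Spon1), an adhesion protein first known from the floor plate of the neural tube, had 46, 39 and 19 reads in the day 0 libraries, 408, 738 and 440 at day 4, and 129, 111 and 91 at day 7. These reads gave 0.367 ± 0.0577, 1.81 ± 0.527 and 1.05 ± 0.295 RPKM at days 0, 4 and 7 (mean ± SD, n = 3 each). All day 4 libraries were above all others, and all day 7 libraries were above those of day 0. The test of day 7 against day 0 gave a log2 fold change of 1.34 (SE 0.226, adjusted p = 4.72e-06 by limma), and over the alternatives it ranged from 0.82 with the RPKM table to 1.63.

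The sequence upstream of the start site is shown for 4 genes that stand for the main patterns: Postn and Tnc with their peak at day 4, Tnn with its rise and Thbs2 with its fall. The RefSeq promoter table (GRCm38.p6) held 7 of the 10 genes, not Sparcl1, Thbs1 or Spon1, and the window of Sparc lies mostly in annotated exons and is left out. Windows hold up to 250 bases before the start site, in the direction of the gene, without annotated exon bases. Capitals mark matches on either strand to TATAAA (the TATA box), GGGCGG (GC box), CCAAT (the CCAAT box), TGTGGT (bound by Runx factors), TGANTCA (AP-1) and CATTCC (TEAD).
Postn, chr3:54360857-54361106, forward strand: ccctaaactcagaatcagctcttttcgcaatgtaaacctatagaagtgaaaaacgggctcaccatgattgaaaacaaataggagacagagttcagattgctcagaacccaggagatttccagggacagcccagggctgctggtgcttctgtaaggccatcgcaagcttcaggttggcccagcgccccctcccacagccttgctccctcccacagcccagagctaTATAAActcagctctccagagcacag
Tnc, chr4:64047016-64047265, reverse strand: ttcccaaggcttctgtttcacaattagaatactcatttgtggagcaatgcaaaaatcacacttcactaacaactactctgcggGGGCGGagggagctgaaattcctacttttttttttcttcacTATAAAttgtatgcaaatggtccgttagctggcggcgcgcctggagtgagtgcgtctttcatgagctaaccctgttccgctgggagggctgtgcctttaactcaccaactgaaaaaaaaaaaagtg
Tnn, chr1:160153581-160153825, reverse strand: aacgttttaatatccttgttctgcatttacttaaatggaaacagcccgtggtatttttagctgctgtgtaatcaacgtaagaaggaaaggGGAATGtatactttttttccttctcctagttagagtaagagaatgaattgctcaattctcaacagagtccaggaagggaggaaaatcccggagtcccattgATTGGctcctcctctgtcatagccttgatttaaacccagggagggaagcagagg
Thbs2, chr17:14694263-14694512, reverse strand: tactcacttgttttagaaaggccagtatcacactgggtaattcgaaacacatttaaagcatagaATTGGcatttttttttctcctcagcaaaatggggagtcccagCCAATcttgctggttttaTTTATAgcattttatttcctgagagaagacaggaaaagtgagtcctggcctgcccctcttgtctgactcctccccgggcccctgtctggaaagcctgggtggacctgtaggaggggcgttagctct

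The letters TATAAA were found in the windows of Postn, Tnc and Thbs2, on the opposite strand in Thbs2, and 12.4% of 32851 windows of 250 bases in the table hold them. In Postn the match began 26 bases before the start site, and in Tnc and Thbs2 it began 126 bases before it. A GC box was present in Tnc, a match held by 32.7% of windows. CCAAT was present once in Tnn and at 2 places in Thbs2, against 33.8% of windows. Tnn also held a match to CATTCC (12.6%). The letters searched for Runx (14.0%) and AP-1 (6.75%) were in none of the 4 windows. These matches are a description of the sequence.

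**Figure D3:**
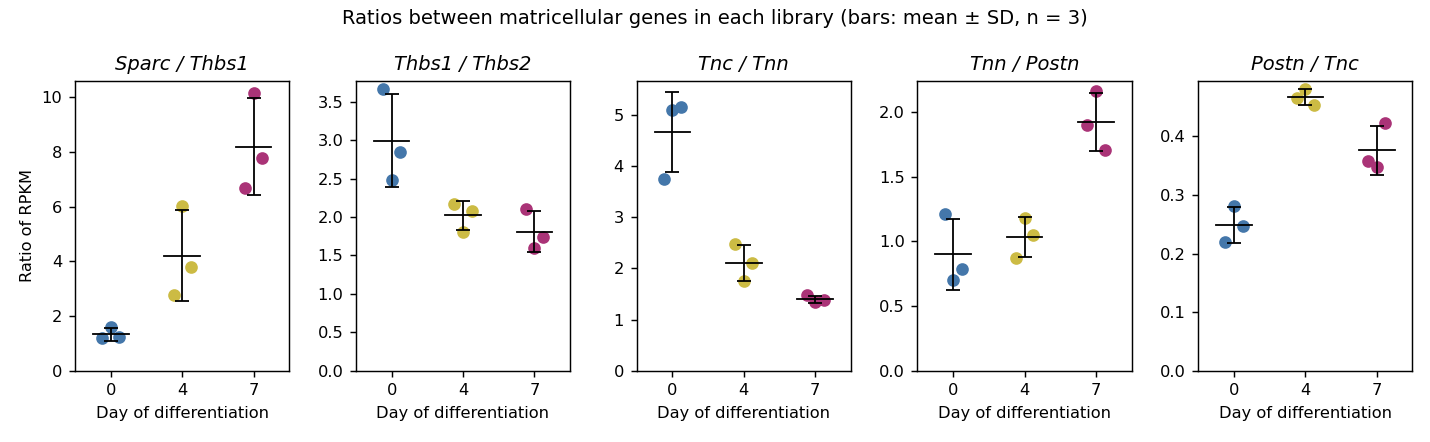
Ratio of the RPKM of pairs of matricellular genes (y axis, from 0, with its own scale in each panel) against the day of differentiation (x axis). Points are the 3 libraries of a stage and black bars the mean with 1 SD; the ratio of Sparc to Thbs1 went from 1.34 at day 0 to 8.20 at day 7, and the ratio of Tnc to Tnn from 4.66 to 1.396.

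By the order of their stages the genes fell into several patterns, described here without a test because day 4 lies in a table of its own and was sequenced more deeply. At day 4, 6 of the 10 genes lay above day 0 in all libraries (Sparc, Postn, Tnc, Tnn, Thbs4 and Spon1), where 21.4% of 12800 genes did so. Another 3 lay below (Sparcl1, Thbs1 and Thbs2), against 22.0%. Thbs4 passed the limit on CPM here only through its day 4 libraries, so its place above day 0 carries no weight. From day 4 to day 7, 5 of the 10 lay below in all libraries (Postn, Tnc, Thbs2, Thbs3 and Spon1), against 25.0% of 12782 genes. Postn, Tnc and Spon1 thus had a peak at day 4 that was set apart from both neighbors in all 9 libraries. The share of all genes with such a peak was not counted, so the peak is not shown to be particular to these genes. The summed level of 12 immediate early genes, which respond to serum and to the dissociation of cells, was also highest at day 4, from 334 to 385 RPKM per library, against 120.0 to 147 at day 0 and 225 to 297 at day 7. Klf4 and Ier3 among them did not peak at day 4. Their means were 43.0 and 39.8 RPKM at day 4 and 67.4 and 48.9 RPKM at day 7. Between day 0 and day 7, 6 of these 12 genes were higher, led by Klf4, and 1 was lower, Egr1, against 12.6% and 18.6% of all genes. Their part in the day 4 levels was not tested.

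The order of the genes by RPKM was nearly the same at each stage. At day 0 it was Sparc, Thbs1, Thbs2, Tnc, Postn, Tnn, Thbs3, Sparcl1, Spon1 and Thbs4, and of these neighbors only Postn and Tnn overlapped between libraries. At day 7 it was Sparc, Thbs1, Thbs2, Tnc, Tnn, Postn, Thbs3, Spon1, Thbs4 and Sparcl1. There Thbs2 overlapped Tnc, Spon1 overlapped Thbs4, and Thbs4 overlapped Sparcl1. At day 4 Tnn and Postn overlapped, as did Thbs2 and Tnc, Spon1 and Thbs4, and Thbs4 and Sparcl1. The ratio of Tnn to Postn was 0.899 ± 0.275, 1.03 ± 0.157 and 1.92 ± 0.227 at days 0, 4 and 7 (mean ± SD, n = 3 each), without overlap between day 0 and day 7. The ratio of Sparc to Thbs1 was 1.34 ± 0.239, 4.21 ± 1.67 and 8.20 ± 1.77 (mean ± SD, n = 3 each).

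The level of Postn relative to other genes depended on the length by which its reads were divided. The RPKM of Postn imply a gene model of 7.83 kb, whereas its longest coding transcript in GENCODE M21 has 3.21 kb, a difference of 2.44-fold that was the largest among the 10 genes. Divided by the longest coding transcript instead, the mean level of Postn would be 154, 409 and 223 on the RPKM scale at days 0, 4 and 7. On that scale Postn would stand above Tnn at each stage, with Tnn at 55.1, 171 and 174, and next to Tnc at day 4, which had 392. The same change of length would raise Thbs3 by 1.51-fold and Sparc by 1.47-fold. Changes of 1 gene between stages are not touched by it.

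**Figure D4:**
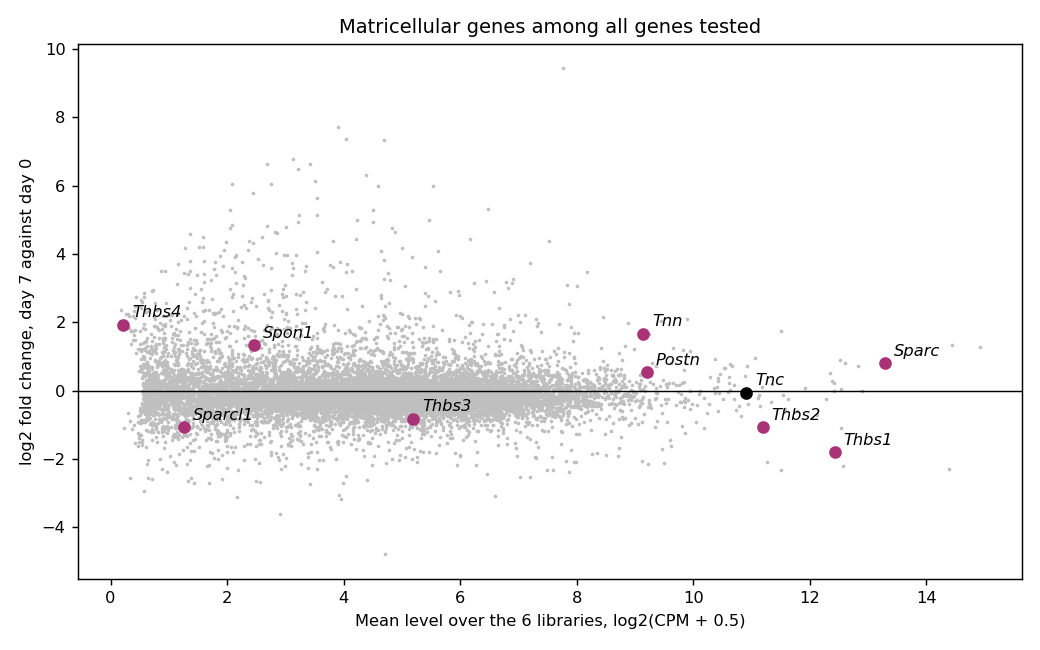
Log2 fold change from day 0 to day 7 (y axis) against the mean level over the 6 libraries as log2(CPM + 0.5) (x axis) for the 12712 genes tested, 1 gray point per gene. Larger points are the 10 matricellular genes, magenta where they passed the limma threshold and black for Tnc; Sparc, Thbs1, Thbs2 and Tnc lie at the upper end of the levels, and Thbs4 at the lower end.

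The nearest relatives of the 10 genes within their families were read from a list of 12. Of these, 10 were tested, 5 were higher and 3 lower at day 7, against 12.6% and 18.6% of all genes, and their median log2 fold change was 0.31, against −0.11 for all genes. Spock1, a testican of the Sparc family, had 2, 1 and 1 reads in the day 0 libraries and 128, 85 and 91 at day 7, and reached at most 1.12 RPKM. Like Thbs4 it passed the limit on CPM only through day 7, so its call is given no p. Its fitted log2 fold change was 3.71. The estimate ranged from 1.46 with the RPKM table, where Comp at 1.56 exceeded it, to 6.17 with DESeq2. Spon2, with 18, 9 and 7 reads at day 0, also had a day 0 mean CPM under the limit. The calls of Spock1 and Spon2 carry no weight, and the higher relatives left are Comp, Sspo and Spock2. The median of 0.31 includes Spock1 and Spon2, both above it. It would be lower without them and is not read against that of all genes. SCO-spondin (Sspo) rose by 2.38 on the log2 scale (limma adjusted p = 9.37e-12) from at most 0.0896 RPKM in the day 0 libraries, and was at most 1.11 RPKM. Its estimate ranged from 0.81 with the RPKM table to 2.99 with DESeq2, and passed in each alternative. The calcium-binding Smoc1 fell most, by 1.80 on the log2 scale, from 2.31, 2.22 and 1.51 RPKM at day 0 to 0.691, 0.321 and 0.439 at day 7 (limma adjusted p = 3.99e-08). Follistatin-like 1 (Fstl1), the most abundant of the list, fell by 0.91 on the log2 scale (limma adjusted p = 3.45e-05). It was 345, 319 and 232 RPKM at day 0 and 160.3, 151 and 159.8 at day 7. The third fall, that of Tgfbi, was −0.45 on the log2 scale (adjusted p = 0.0447 by limma) and did not pass in 12 of 17 alternatives.

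Cartilage oligomeric matrix protein (Comp), the fifth thrombospondin, was chosen for mention after its values were seen. It was 13.4, 5.45 and 5.48 RPKM at day 0, 6.10, 3.15 and 3.72 at day 4, and 37.6, 20.4 and 15.4 at day 7, with the lowest mean at day 4 and all day 7 libraries above all others. Its rise of 1.60 on the log2 scale passed in limma (adjusted p = 2.20e-07) but not with robust variances (adjusted p = 0.113). Of the chondrocyte markers, Col11a2 (log2 fold change 3.46) and Acan (1.06, with overlapping libraries) rose with Comp at day 7. Col2a1 (−2.16), Col9a1 (−1.04) and Sox9 (−0.73) fell. The chondrocyte list summed to 167 to 482 RPKM per library at day 0, 137 to 232 at day 4 and 178 to 277 at day 7. The part of these markers in the level of Comp was not tested.

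Of 21 receptors known to bind these proteins, all were tested, 5 were higher and 6 lower at day 7, against 12.6% and 18.6% of all genes. Their median log2 fold change was −0.22, and that of all genes −0.11. Without day 0 replicate 3, 10 were lower. Ptprz1, a receptor-type phosphatase that binds tenascins, rose most, from 0.256, 0.249 and 0.192 RPKM at day 0 to 23.4, 27.2 and 19.2 at day 7, with 8.54, 15.0 and 9.24 in between (log2 fold change 6.30, limma adjusted p = 4.29e-32). Stabilin 1 (Stab1), a scavenger receptor for Sparc carried by macrophages, rose by 1.78 on the log2 scale, from 0.617, 1.03 and 0.627 to 2.87, 2.10 and 3.08 RPKM (limma adjusted p = 2.72e-10). All 6 macrophage markers were also higher at day 7, against 12.6% of all genes. Among them Ptprc, with 15, 9 and 1 reads at day 0, passed the limit on CPM only through day 7, and its call carries no weight. The summed level of the 6 markers, most of it from Lyz2, was 42.2 to 72.5 RPKM at day 0 and 77.8 to 103 at day 7. Their part in the rise of Stab1 was not tested.

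The amyloid precursor protein (App), which binds F-spondin, was the most abundant of these receptors and fell by 1.23 on the log2 scale, from 443, 499.6 and 424 RPKM at day 0 to 202, 186 and 192 at day 7 (limma adjusted p = 2.57e-08). Integrin αv (Itgav), a shared receptor subunit for periostin, tenascin C and thrombospondin 1, fell by 0.96 on the log2 scale, from 54.1, 56.2 and 44.6 RPKM to 28.0, 24.7 and 26.5 (limma adjusted p = 2.45e-06). Of thrombospondin 1 receptors, Cd47 rose (log2 fold change 0.52, limma adjusted p = 0.00876), and Cd36 had a log2 fold change of 0.55 that did not pass (limma adjusted p = 0.0608). Lrp1 of the same list fell (log2 fold change −0.49, limma adjusted p = 0.0227). All of these were picked after their values were seen, and in the whole list 5 receptors were higher and 6 lower.

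Markers of other cell types were set beside these results. Among all genes tested, 12.6% were higher and 18.6% lower at day 7. Of 5 tendon and ligament markers 4 were tested, and all 4 were lower at day 7, among them Egr1, which the immediate early list also holds. Tnmd, the highest of them, was 117, 129 and 90.4 RPKM at day 0, 122, 98.6 and 107 at day 4, and 77.4, 48.4 and 63.7 at day 7, and the summed list ran from 169 to 215 RPKM at day 0 and from 92.3 to 129 at day 7. Thrombospondins and tenascin C are also products of tendon cells, and the part of these cells in the lower levels of Thbs1, Thbs2 and Thbs3 was not tested. Among 6 pericyte and smooth muscle markers 2 were higher and 1 lower, with Cspg4 the highest at up to 109 RPKM. The lower one, Rgs5, had 9, 12 and 9 reads at day 7. It passed the limit on CPM only through day 0, so its call carries no weight. Among 7 chondrocyte markers 2 were higher and 3 lower, and Col2a1 was the highest at up to 420 RPKM. Of 3 glial markers tested 1 was lower and 0 were higher (also 0 at an unadjusted p under 0.05 by limma), with S100b the highest at up to 7.93 RPKM. The only skeletal muscle marker tested, Acta1, was higher and reached 8.47 RPKM. For Acan, S100b and Acta1, whose calls are counted here, the libraries of day 0 and day 7 overlapped. The highest endothelial marker was Tek at up to 0.302 RPKM.

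The genes whose log2(CPM + 0.5) most resembled that of each matricellular gene over the 9 libraries were taken among 9100 genes whose mean CPM reached 10. The libraries fall into 3 stages, and the day 4 libraries share depth and table, so these correlations are a description. For Sparc they were Klhl2, Grhpr and Sap30, with Pearson's r from 0.989 to 0.995. Thbs1 was closest to Pappa2, Tiam1 and Pxdn (0.990 to 0.991), and Thbs2 to Dab2ip, Sulf2 and Ehd2 (0.981 to 0.985). The nearest gene to Thbs3 was the tendon marker Tnmd (0.990), followed by Slc35b4 and Xpo6. For Tnn they were Slc16a3, Gng11 and Serpine2 (0.994 to 0.997). Postn was closest to Lmcd1, Kcnj2 and Etv4 (0.979 to 0.981), and Tnc to Lrp10, Itga5 and Ptgfrn (0.966 to 0.978), where Itga5 is an integrin subunit of the receptor list. For the scarce genes the neighbors were Fxyd5, Maff and Arhgef28 for Spon1, Col18a1, Adgra2 and Abca7 for Sparcl1, and Fam43a, Slc6a9 and Adamtsl5 for Thbs4, with r of 0.983, 0.977 and 0.947 for the first of each.

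The genes lie on GRCm38 as follows, by GENCODE M21. Sparc (ENSMUSG00000018593) is on chromosome 11 from 55394500 to 55423183 on the reverse strand, and Sparcl1 (ENSMUSG00000029309) on chromosome 5 from 104079111 to 104113733 on the reverse strand. Thbs1 (ENSMUSG00000040152) is on chromosome 2 from 118111876 to 118127133, Thbs2 (ENSMUSG00000023885) on chromosome 17 from 14665500 to 14694235 on the reverse strand, Thbs3 (ENSMUSG00000028047) on chromosome 3 from 89215180 to 89226837, and Thbs4 (ENSMUSG00000021702) on chromosome 13 from 92751590 to 92794818 on the reverse strand. Tnc (ENSMUSG00000028364) is on chromosome 4 from 63959785 to 64047015 and Tnn (ENSMUSG00000026725) on chromosome 1 from 160085029 to 160153580, both on the reverse strand. Postn (ENSMUSG00000027750) is on chromosome 3 from 54361109 to 54391037, and Spon1 (ENSMUSG00000038156) on chromosome 7 from 113765998 to 114043370. Gm29233 on the opposite strand overlaps 3.42% of the exon bases of Thbs1. Of stretches of 50 bases in the transcripts of Sparc, 0.601% also lie in transcripts of other genes, and the other 9 genes shared 0.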

How the data were processed

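The RNA was depleted of ribosomal RNA with Ribo-Zero Gold. Per the labels and the methods, the authors aligned reads to the Ensembl release 76 assembly (GRCm38) with STAR 2.0.4b and assigned reads with a single unambiguous placement to genes with featureCounts. The deposited CPM scale these reads to each library's total, and the deposited RPKM take gene length into account as well; day 0 and day 7 share a table and day 4 has its own. Where a gene had several lines, their values did not differ, and 1 line was kept. In each library 100% of the CPM were whole multiples of 1 read, within 0.01 read (more for genes with very many reads), and gave the recovered counts. No 2 replicates matched within sampling noise, as the chi-square statistic over genes was 12.7 to 222 times its degrees of freedom.

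The comparison of day 7 with day 0 used limma 3.58.1 (R 4.3.3) on log2(CPM + 0.5), with a trend, for genes whose mean CPM reached 1, with Benjamini-Hochberg adjustment and a threshold of 0.05. With 42.9 prior and 4 residual degrees of freedom, the variances come largely from the trend. Where labels do not say how cultures were separated, p-values measure the spread between these libraries. On simulated reads for 12712 genes of this comparison, 195 of 200 changed genes were recovered and 14 unchanged genes were called. The simulation gave all genes the same spread beyond counting error. It held no gene whose share varied between libraries as that of Gm42418 did. These numbers therefore check the fit and are not its error rate on these libraries. Day 4 entered no test. Count models, edgeR 4.0.16, DESeq2 1.42.0 and voomWithQualityWeights on the recovered reads, were alternatives: the last is the function the authors name, here run on recovered reads. The members and lists were chosen with earlier results of these data known. The text names the 10 members, and the 2 largest rises and falls and the highest level of the family and receptor lists. It also names the 3 most similar genes of each member, the highest gene of each marker list, and the largest rise and fall of the immediate early genes. Comp, Tgfbi, Cd36, Cd47 and the chondrocyte markers beside Comp were added after their values were seen. So were Spon2, Spock2, Bglap, Dmp1, Ptprc, Rgs5, Lrp1, Scx, Mkx, Kera and Ier3.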

Additional observations from a re-analysis of the deposited data

How the results depend on the processing

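Over 17 alternatives to the test of day 7 against day 0, the number of matricellular genes called higher ranged from 4 to 5 and the number called lower was 4 in each. The higher counts include Thbs4 each time. It passed the limit on CPM only through day 7, so its part in these counts carries no weight. These alternatives were pseudocounts of 0.1 and 1, no filter, the RPKM table, robust variances, edgeR, DESeq2, voomWithQualityWeights, median-of-ratios scaling, the replicate number as a block, each of the 6 libraries left out in turn, and CPM without the most abundant genes, the last chosen after seeing the data. The number of all genes called was 3971, 6120 with voomWithQualityWeights and 3413 with the replicate block, and it ranged from 2906 to 6299 with 1 library left out, the highest without day 0 replicate 3. With median-of-ratios scaling 5456 genes were called, and 51.8% of the calls were higher in place of 40.3%. Lower receptors ranged from 4 to 10 with 1 library left out. Same-numbered libraries of day 0 and day 7 did not deviate together (correlations of −0.017, −0.181 and −0.444), and differently numbered ones ranged from −0.271 to 0.356. With so few libraries these values cannot show whether same-numbered libraries share a cell preparation. The block changed no call among the 10 genes, whose counts stayed at 5 higher, Thbs4 included, and 4 lower. Tnc turned to above 0, without passing, in edgeR (0.0551), DESeq2 (0.0591), voomWithQualityWeights (0.0662) and under median-of-ratios scaling (0.0517). With 1 library left out it ranged from −0.1905 to 0.0234, above 0 without day 0 replicate 2 (0.0043) or day 7 replicate 3. Depth limits Thbs4 and Sparcl1, which had at most 33 and 48 reads in a library of day 0 or day 7. Counts of genes not overlapping between day 4 and the other stages moved by at most 1 with 1 library left out.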
